A study of Mus musculus with 112 samples.

Results

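Ankrd1, Ankrd2, Csrp3, Ctgf and Cyr61 are load-sensitive genes of striated muscle and its connective tissue, and their transcripts were followed here in the mouse gastrocnemius after casting. They were chosen by name as mechanosensing genes, 5 of 32544 gene symbols counted, and all 5 were among the 11886 genes that could be tested. Gastrocnemius RNA was sequenced for each limb separately from 56 mice of the Diversity Outbred stock, whose animals each carry their own mix of founder genomes. The mice were 16 weeks old and wore a cast on 1 limb over 3 weeks, and the question, from the series' title, is how muscle remodels after long immobilization in each sex. The 4 groups were the control limbs of 28 females, the immobilized limbs of the same 28 females, the control limbs of 28 males and the immobilized limbs of the same 28 males, with no other treatment or genotype named in the labels. In every animal the cast was on the right and the control limb on the left, so side and immobilization cannot be told apart, and the control limbs are those of cast-bearing animals.

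Ankrd1 and Ankrd2 encode muscle ankyrin repeat proteins, which sit on the spring region of titin in the sarcomere and can also enter the nucleus. Csrp3 encodes muscle LIM protein, a Z-disc protein linked to stretch signalling and to slow fibres. Ctgf and Cyr61 encode secreted matricellular proteins of the CCN family that bind integrins and matrix, and both are widely used as readouts of YAP and TAZ, the co-activators that work through TEAD factors when cells are stretched or spread.

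The windows before the transcription starts are printed because YAP and TAZ reach DNA through TEAD, so the letters show which of these genes carry a TEAD motif close to the start. RefSeq (GRCm38.p6) gave a window for 4 of the 5 genes, and each line holds the 250 bases before the start, 5′ to 3′ on the gene's strand, with the TEAD motif CATTCC or its reverse complement GGAATG in capitals. Ankrd1 lies at chr19:36119845-36120094 on the minus strand, Ankrd2 at chr19:42035777-42036026 on the plus strand, Csrp3 at chr7:48848052-48848301 on the minus strand and Cyr61, listed in RefSeq as Ccn1, at chr3:145649986-145650235 on the minus strand.
Ankrd1: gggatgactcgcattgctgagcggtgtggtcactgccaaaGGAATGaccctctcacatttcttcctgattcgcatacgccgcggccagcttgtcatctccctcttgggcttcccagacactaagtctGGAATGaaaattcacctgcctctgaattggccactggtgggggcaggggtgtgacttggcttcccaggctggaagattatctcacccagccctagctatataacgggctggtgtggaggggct
Ankrd2: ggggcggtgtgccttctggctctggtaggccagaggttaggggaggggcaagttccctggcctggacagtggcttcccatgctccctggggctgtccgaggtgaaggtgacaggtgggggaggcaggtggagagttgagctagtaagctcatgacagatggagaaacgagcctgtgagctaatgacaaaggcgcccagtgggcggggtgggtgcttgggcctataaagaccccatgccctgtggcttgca
Csrp3: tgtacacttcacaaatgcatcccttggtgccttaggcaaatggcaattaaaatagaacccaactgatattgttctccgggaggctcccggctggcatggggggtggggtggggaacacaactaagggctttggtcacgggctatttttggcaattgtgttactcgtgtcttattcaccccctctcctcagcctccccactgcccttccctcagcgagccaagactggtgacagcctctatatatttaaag
Cyr61: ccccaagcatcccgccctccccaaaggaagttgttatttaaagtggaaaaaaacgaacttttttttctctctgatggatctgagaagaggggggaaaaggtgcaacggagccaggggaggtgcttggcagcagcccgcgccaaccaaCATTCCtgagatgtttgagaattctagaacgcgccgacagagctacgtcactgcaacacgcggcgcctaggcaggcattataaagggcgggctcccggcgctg

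Ankrd1 held 2 TEAD motifs, both as GGAATG, at 210 to 205 and at 123 to 118 bases before the start. Cyr61 held 1, as CATTCC, at 103 to 98 bases before the start. Neither Ankrd2 nor Csrp3 held one, and the window of a second Csrp3 start (not printed) held none either. Of 32851 windows of this length over all genes, 12.6% hold the motif on either strand. The CArG box bound by serum response factor and the AP-1 motif TGANTCA were found in none of these windows, against 1.47% and 6.75% of all windows. E-boxes (CANNTG), which myogenic factors bind, numbered 3 in Ankrd2, 4 in Csrp3, 1 in Ankrd1 and 0 in Cyr61, and 66.2% of all windows hold at least 1. A TATAAA box stood 29 to 24 bases before the Ankrd2 start and 25 to 20 bases before the Cyr61 start, and 12.4% of all windows hold one. These are letter matches and not measured binding, and the motifs were searched on both strands.

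Libraries held 1716485 to 9995936 counted reads, with a median of 4395118. Acta1, the actin of skeletal muscle fibres, had a median of 31500 CPM (reads scaled to the size of the library), but in 10 libraries, each of a different animal, it was under 50% of that median. Females gave 3 of these from control and 4 from immobilized limbs, and males 2 from control limbs and 1 from an immobilized limb. Summed over 10 muscle fibre markers, Acta1 among them, they held 37.4 to 41100 CPM, against 71400 to 193000 CPM in the other 102 libraries. Since the libraries were picked by Acta1, part of this gap was set by the choice. Summed over 12 fast-fibre genes, which do not include Acta1, the 10 libraries held 40.6 to 47400 CPM, against 79900 to 244000 CPM. Summed over 8 adipocyte markers their median was 3750 CPM against 273 CPM, and over 10 lymphocyte markers 418 CPM against 1.78 CPM. The extreme was the control limb of male 52, with Acta1 at 3.45 CPM and adipocyte markers at 19300 CPM. The limbs of 54 of 56 animals matched each other best over the 150 genes that agreed most between limbs in the other animals. The exceptions were males 15 and 16, whose control limbs each matched the other animal's immobilized limb (r = 0.972 and 0.966, against 0.16 and 0.162 for the limb labelled as its own). Both animals are used as labelled. The fits were repeated leaving them out, but the correlations across animals were not, so these include both males as labelled. Fits and correlations were both repeated leaving out the 10 animals with a low Acta1 library.

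Levels of different genes can be set side by side only per length, here as CPM per kilobase of exon. In female control limbs Ankrd2 stood highest of the 5, with a median of 152 CPM per kilobase, followed by Cyr61 at 54.5, Csrp3 at 41, Ctgf at 23.5 and Ankrd1 at 5.11. Neighbours in this order overlapped over libraries: Ankrd1 ran from 0.264 to 20.2 CPM per kilobase and Ctgf from 3.45 to 81.8. In female immobilized limbs the medians were 80.6 for Ankrd2, 41 for Cyr61, 27.5 for Csrp3, 15.6 for Ctgf and 11 for Ankrd1. In males Ankrd2 went from 117 in control to 105 in immobilized limbs and Ankrd1 from 4.83 to 7.43, so Ankrd1 was the lowest of the 5 in each group. Ankrd23, the third muscle ankyrin repeat gene, was far more abundant than either relative, at 793 CPM per kilobase in female and 851 in male control limbs.

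**Figure D1:**
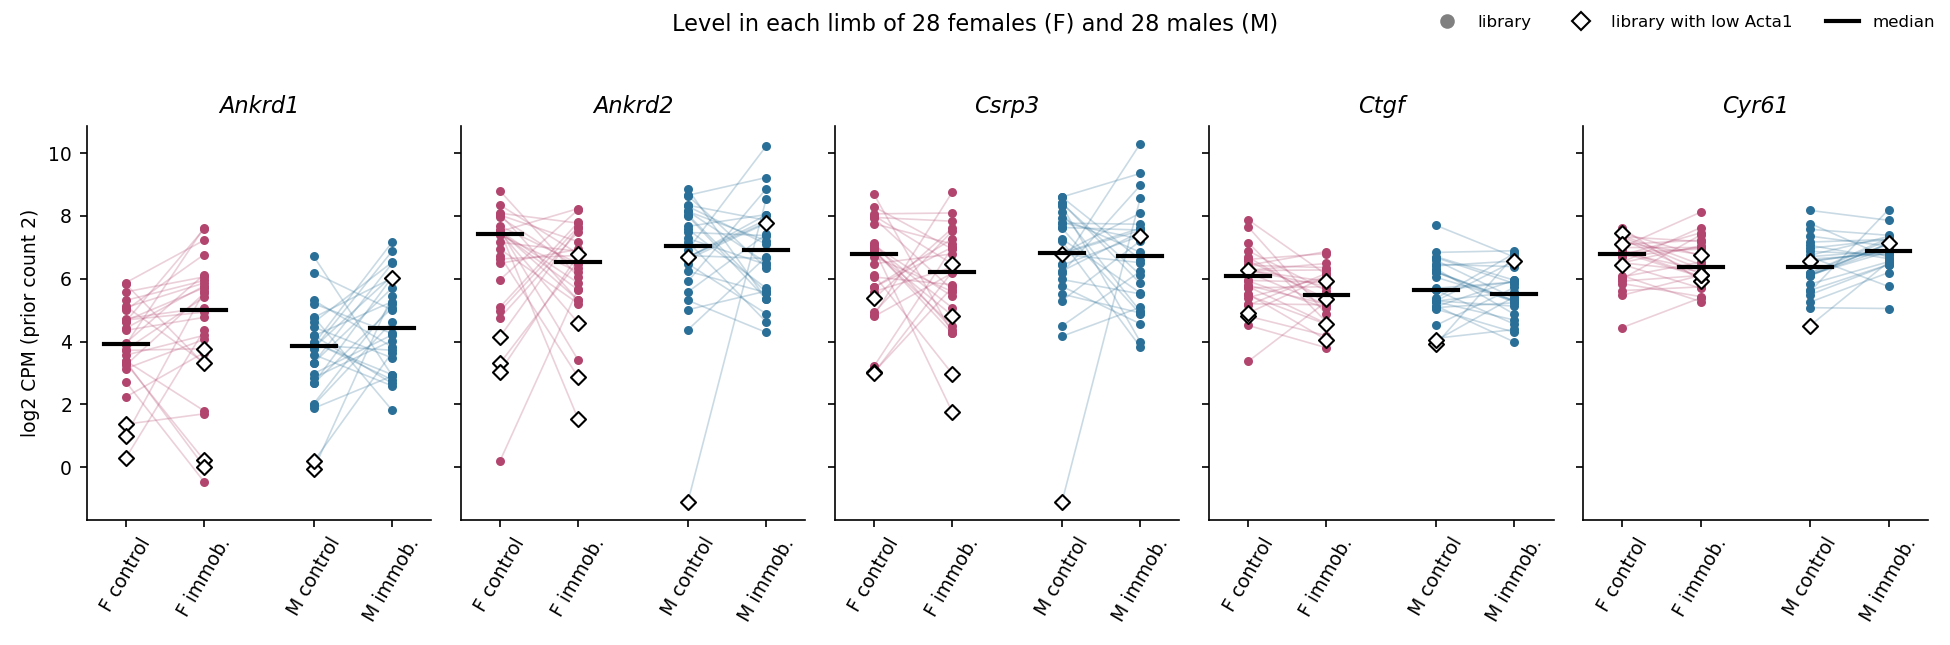
Level of each gene in the 112 libraries, as log2 CPM (prior count 2) on the vertical axis, for female and male control and immobilized limbs, with lines joining the limbs of an animal, diamonds for the 10 libraries of low Acta1 and bars for group medians. The lines cross in both directions for every gene, and the median of Ankrd1 is higher in immobilized limbs in both sexes (14.8 to 31.7 CPM in females, 13.9 to 21.4 CPM in males).

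Ankrd1, the stress-inducible muscle ankyrin repeat gene, was the only one of the 5 to pass the threshold, and it was higher in immobilized limbs. In females its control limbs ran from 0.761 CPM to 58.2 CPM with a median of 14.8 CPM, and its immobilized limbs from 0.262 CPM to 197 CPM with a median of 31.7 CPM. In males the control limbs ran from 0.492 CPM to 105 CPM with a median of 13.9 CPM, and the immobilized limbs from 3.06 CPM to 142 CPM with a median of 21.4 CPM. The groups overlapped widely, with immobilized limbs of 7 females and 2 males above the highest control limb of their sex and immobilized limbs of 3 females below the lowest. The counts behind these levels were small, with a median of 65 reads over the control limbs of females and 136 over their immobilized limbs. Over both sexes Ankrd1 rose by 0.89 ± 0.30 on the log2 scale (SE, 95% interval 0.31 to 1.48; edgeR adjusted p = 0.028). In females alone the log2 difference was 0.81 ± 0.41 (edgeR adjusted p = 0.22) and in males 0.98 ± 0.43 (edgeR adjusted p = 0.22). In bulk muscle, fewer cells of a type and less RNA per cell cannot be told apart, and this holds for each result here.

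The background of these calls was 4.57% of all genes in females (543 of 11886), 2.21% in males (263) and 19.9% over both sexes (2371). Without the 10 animals of low Acta1, 32.5% of genes passed over both sexes (3814 of 11731). Of the 5 genes, 0 passed in females, 0 in males and 1 over both sexes, so the share of members called over both sexes was close to that of all genes. Without a term for the animal the male count rose to 589 genes, and the members called were 0 in each sex and 1 over both.

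Within animals, Ankrd1 was higher in the immobilized limb of 22 of 28 females and 17 of 28 males. It was at least 2-fold higher in 12 females and 17 males and at least 2-fold lower in 6 females and 7 males, so limbs of single animals moved far in both directions. The differences ran from -3.35 to 4.60 (log2 CPM) in females and from -3.79 to 5.51 in males. A two-sided sign-flip permutation test over the animals gave p = 0.12 in females, p = 0.038 in males and p = 0.0093 over both sexes, not adjusted for the other genes. Without the 10 animals of low Acta1 the log2 difference over both sexes was 0.86 (edgeR adjusted p = 0.014), and the permutation test gave p = 0.038 in females, p = 0.14 in males and p = 0.014 over both. Without male 52, whose limbs differed most, limma voom gave 0.91 over both sexes (adjusted p = 0.008). Over all limma voom fits that left out a single animal, this value ran from 0.89 to 1.07.

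The effect of Ankrd1 was largest in the animals numbered 1 to 20. There the mean limb difference was 1.17 in females, all 10 of which were higher in the immobilized limb, and 1.24 in males. In animals 21 to 40 it was 0.55 in females and 0.92 in males, and in animals 41 to 59 it was 0.16 and 0.58. Fitted within these ranges, the log2 difference over both sexes was 1.23 (edgeR adjusted p = 0.0095), 0.80 (adjusted p = 0.58) and 0.43 (adjusted p = 0.93). The call therefore held within the first range only, although all 3 values were positive. Almost no gene of all those tested passed over both sexes in the other ranges, so a lost call there is not particular to Ankrd1. The labels do not call these number ranges batches, and whether the ranges differ was not tested.

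**Figure D2:**
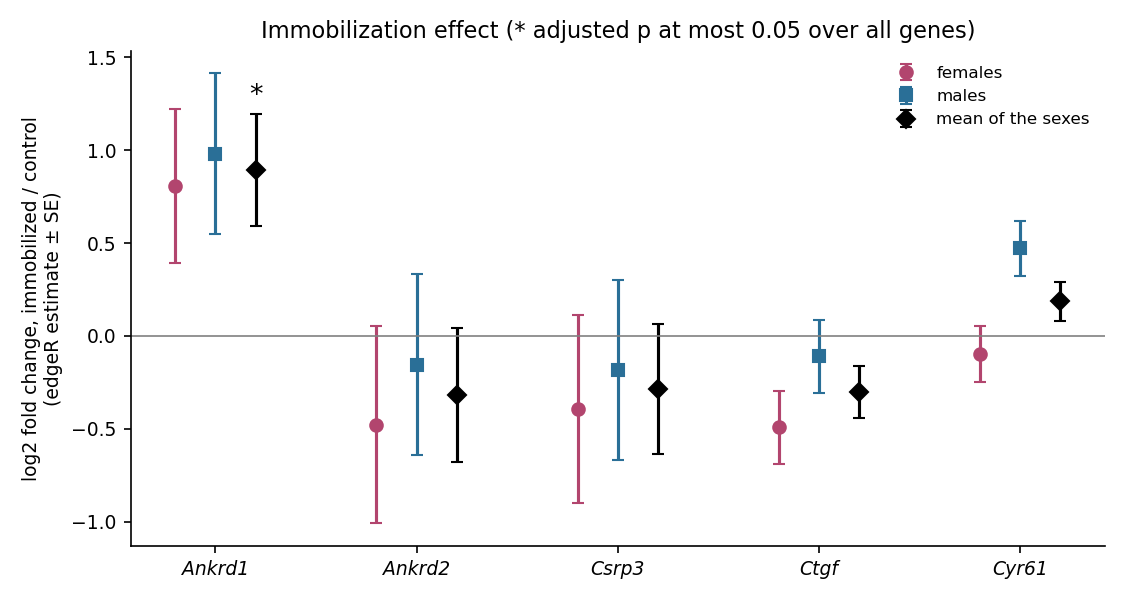
Log2 fold change of immobilized over control limb for each gene, with SE bars, in females, in males and as the mean of the sexes from the edgeR fit, with a star for an adjusted p of at most 0.05. The 1 star is on Ankrd1 over both sexes (0.89 ± 0.30), and the bars of Ankrd2 and Csrp3 cross 0 in both sexes.

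Ankrd2, the stretch-responsive relative of Ankrd1 found mainly in slow fibres, did not pass the threshold in either sex. Female control limbs ran from 0.68 CPM to 445 CPM with a median of 172 CPM, and immobilized limbs from 2.42 CPM to 301 CPM with a median of 91.7 CPM. Male control limbs ran from 0 CPM to 461 CPM with a median of 133 CPM, and immobilized limbs from 19.1 CPM to 1190 CPM with a median of 120 CPM. No immobilized limb of a female stood above the highest control limb, while 3 of males did, and the groups otherwise overlapped. The log2 difference was -0.48 ± 0.53 in females (95% interval -1.52 to 0.56, edgeR adjusted p = 0.59) and -0.15 ± 0.49 in males (-1.11 to 0.80, adjusted p = 0.91). These intervals are wide: 98.7% of all genes had a smaller SE in females and 98.3% in males.

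Single animals moved strongly in Ankrd2 all the same. It was at least 2-fold higher in the immobilized limb of 8 females and 9 males, and at least 2-fold lower in 14 females and 10 males. The control limb of male 52 held 0 reads of Ankrd2, which allows up to 0.369 CPM at 3 counts, against 371 CPM in its immobilized limb, at least 1005-fold higher. That control library also had the lowest sum of muscle fibre markers of all libraries. Without male 52 limma voom gave -0.33 in males (adjusted p = 0.70). This was the lowest of the limma voom fits that left out a single animal, which ran up to 0.056. In animals 1 to 20 the mean limb difference of females was -1.33, in animals 21 to 40 it was -0.38 and in animals 41 to 59 it was 0.71, so the sign was not the same throughout. Ankrd23, which shares ankyrin repeats and titin binding with Ankrd2, had medians of 2140 CPM in control and 1470 CPM in immobilized limbs of females and of 2300 CPM and 1990 CPM in males. Its log2 difference was -0.40 ± 0.23 over both sexes (edgeR adjusted p = 0.22), and its reads may include those of the antisense gene Gm42417, since use of strand in counting is not given in the sources used here.

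Csrp3 likewise did not pass the threshold in either sex. Female control limbs ran from 7.61 CPM to 411 CPM with a median of 110 CPM, and immobilized limbs from 2.9 CPM to 433 CPM with a median of 73.4 CPM. Male control limbs ran from 0 CPM, again in male 52, to 388 CPM with a median of 112 CPM, and immobilized limbs from 13.8 CPM to 1260 CPM with a median of 106 CPM. The medians of males were nearly the same, and the highest values of each sex were in immobilized limbs. The log2 difference was -0.39 ± 0.51 in females (95% interval -1.38 to 0.60, edgeR adjusted p = 0.65) and -0.18 ± 0.49 in males (-1.13 to 0.77, adjusted p = 0.89). It was at least 2-fold higher in 9 females and 7 males and at least 2-fold lower in 13 females and 10 males. In males, leaving out the term for the animal turned the sign of both genes, to 0.18 for Ankrd2 and 0.25 for Csrp3, neither called. The close relatives Csrp1, of smooth muscle, and Csrp2 had log2 differences of 0.31 ± 0.12 (edgeR adjusted p = 0.056) and 0.50 ± 0.19 (0.051) over both sexes.

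Ctgf, the CCN gene known as a profibrotic target of TGF-beta and YAP, had lower medians in immobilized limbs, most of all in females. Female control limbs ran from 9.87 CPM to 234 CPM with a median of 67.1 CPM, and immobilized limbs from 13.5 CPM to 116 CPM with a median of 44.6 CPM. Male control limbs ran from 14.6 CPM to 207 CPM with a median of 49.1 CPM, and immobilized limbs from 15.4 CPM to 118 CPM with a median of 45.1 CPM. Every immobilized limb lay inside the range of the control limbs of its sex, and the highest values were in control limbs in both. The log2 difference was -0.49 ± 0.20 in females (95% interval -0.88 to -0.11, unadjusted p = 0.015, edgeR adjusted p = 0.12) and -0.11 ± 0.20 in males (-0.49 to 0.28, adjusted p = 0.83). Over both sexes it was -0.30 ± 0.14 (edgeR adjusted p = 0.12), a miss that turned into a call without the 10 animals of low Acta1 (-0.36, edgeR adjusted p = 0.043). With males 15 and 16 also left out the same value had an adjusted p of 0.053.

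Ctgf was higher in the immobilized limb of 9 of 28 females and 13 of 28 males, and at least 2-fold lower in 9 females and 5 males. The sign-flip permutation test gave p = 0.02 in females, p = 0.69 in males and p = 0.047 over both sexes, not adjusted for the other genes. The mean limb difference of females was negative in each range of animal numbers, at -0.49, -0.19 and -0.73. Ctgf overlaps the antisense gene Gm15270 in the annotation, so some of its reads may belong to that gene.

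Cyr61, the immediate early member of the CCN family, had the higher median in immobilized limbs in males and the lower one in females. Male control limbs ran from 22.3 CPM to 289 CPM with a median of 82.9 CPM, and immobilized limbs from 32.7 CPM to 294 CPM with a median of 118 CPM. Female control limbs ran from 21.4 CPM to 196 CPM with a median of 110 CPM, and immobilized limbs from 38.2 CPM to 277 CPM with a median of 82.7 CPM. In males 25 of 28 immobilized limbs stood above the median control limb, in females 10 of 28, yet the ranges overlapped in both sexes. The log2 difference was 0.47 ± 0.15 in males (95% interval 0.18 to 0.76, unadjusted p = 0.0026), which missed the threshold in edgeR (adjusted p = 0.076), and -0.10 ± 0.15 in females (edgeR adjusted p = 0.71). In males DESeq2 (0.48, adjusted p = 0.028) and limma voom (0.53, adjusted p = 0.032) called it, as did edgeR without males 15 and 16 (0.53, adjusted p = 0.047).

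Within animals Cyr61 was higher in the immobilized limb of 20 of 28 males and 13 of 28 females. The sign-flip permutation test gave p = 0.0034 in males and p = 0.52 in females, not adjusted. Without the animals of low Acta1 it gave p = 0.014 in males and p = 0.98 in females. In males the mean limb difference was 0.45, 0.69 and 0.25 in the 3 ranges of animal numbers, higher in 7 of 10, 9 of 10 and 4 of 8 animals. In females it was -0.36, 0.34 and -0.18, higher in 2 of 10, 6 of 8 and 5 of 10.

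**Figure D3:**
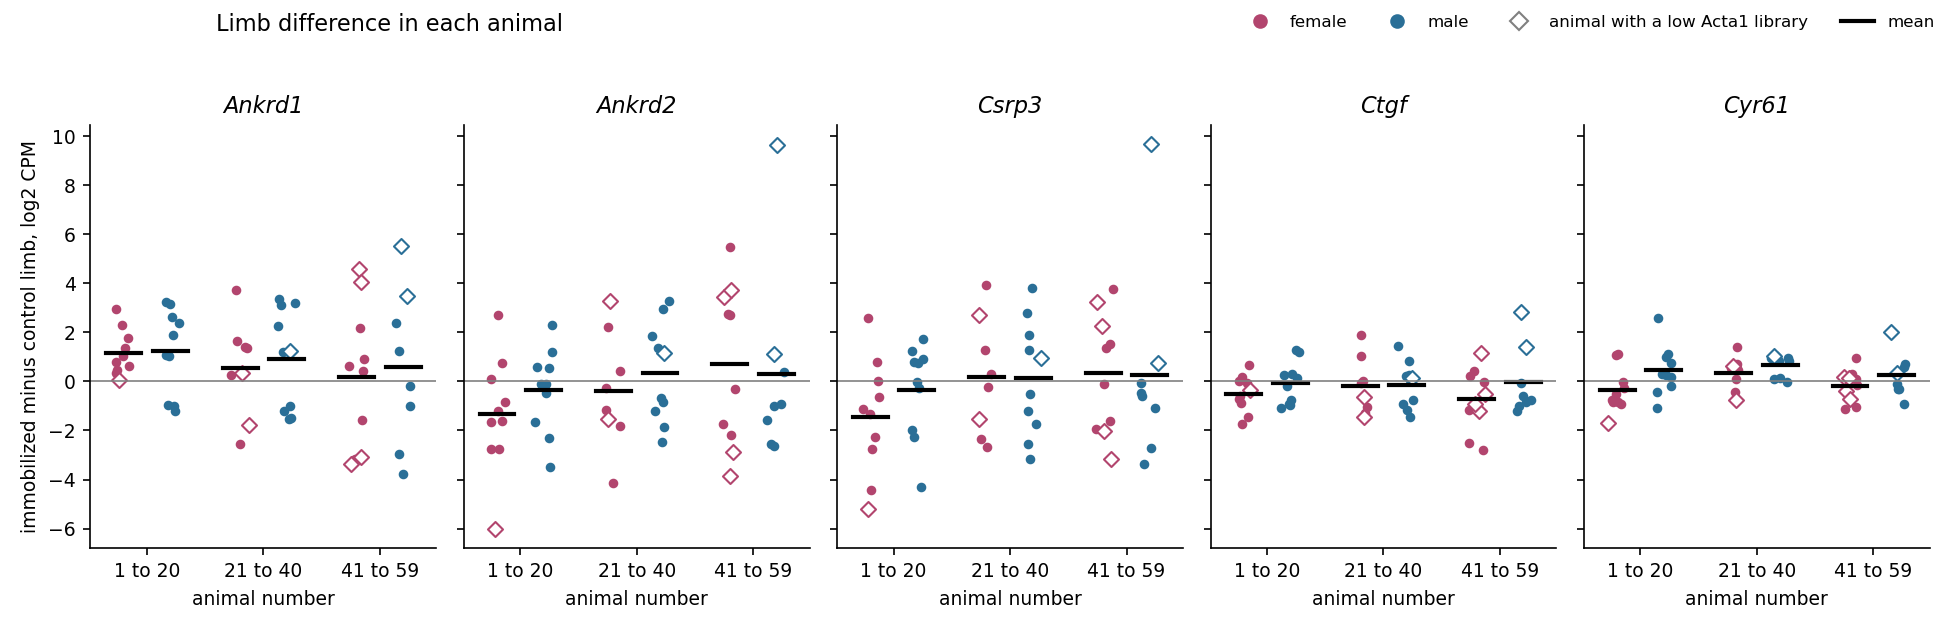
Difference in log2 CPM between the immobilized and the control limb of each animal on the vertical axis, by range of animal numbers (1 to 20, 21 to 40, 41 to 59) in females and males, with bars for the mean and diamonds for animals with a low Acta1 library. Ankrd1 has positive means in all 6 sets, from 0.16 to 1.24, while Ankrd2 and Csrp3 in females move from -1.33 and -1.44 in the first range to 0.71 and 0.33 in the third.

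The other CCN genes were few and low. Wisp2, a CCN protein without the C-terminal domain, rose over both sexes by 1.10 ± 0.26 in log2 units (edgeR adjusted p = 0.0021) and in males by 1.28 ± 0.36 (adjusted p = 0.041), against 0.92 ± 0.37 in females (adjusted p = 0.12). Its medians were 1.38 CPM in control and 3.39 CPM in immobilized limbs of females and 1.2 CPM and 3.32 CPM in males, and it was higher in the immobilized limb of 17 females and 22 males. Nov had a log2 difference of -0.23 over both sexes (edgeR adjusted p = 0.39). Wisp1 and Wisp3 were counted but too low to test. Over both sexes 1 of 4 tested CCN genes rose and 0 fell, with a median log2 difference of -0.02. This share was near the 19.9% of all genes that passed in that comparison.

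No member's response was shown to differ between the sexes. The male minus female difference in the immobilization effect was 0.57 ± 0.21 for Cyr61 (95% interval 0.15 to 0.98, unadjusted p = 0.0093), but its edgeR adjusted p was 1.00, and permuting the sex labels gave p = 0.0088, or 0.087 without the animals of low Acta1. For Ctgf it was 0.38 ± 0.28 (edgeR unadjusted p = 0.17), for Ankrd2 0.32 ± 0.72, for Csrp3 0.21 ± 0.70 and for Ankrd1 0.17 ± 0.59, with adjusted p of 1.00 for each. Of all genes, 0% passed in this comparison by edgeR, DESeq2 or limma voom (0 of 11886), and 1.63% had an unadjusted p of at most 0.05 (194 genes, Cyr61 among them). The intervals of these differences are wide, from -1.09 to 1.73 for Ankrd2 and from -0.16 to 0.93 for Ctgf, so they do not show that the sexes responded alike.

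Levels of the 5 genes were also compared between the sexes limb by limb. In control limbs 0 of the 5 passed, against 1.80% of all genes (214 of 11886), and the male minus female log2 differences ran from -0.30 ± 0.24 for Ctgf to 0.35 ± 0.36 for Csrp3. In immobilized limbs 0 of the 5 passed, against 4.86% of all genes (578). There Ankrd2 and Csrp3 were the farthest apart, with male minus female differences of 0.84 ± 0.37 (unadjusted p = 0.025, edgeR adjusted p = 0.17) and 0.90 ± 0.40 (unadjusted p = 0.029, adjusted p = 0.18). Ankrd1 was at -0.38 ± 0.42 (adjusted p = 0.64), Ctgf at 0.11 ± 0.21 (0.79) and Cyr61 at 0.30 ± 0.17 (0.32). For both genes 3 male immobilized limbs stood above every male control limb, up to 1190 CPM and 1260 CPM.

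Across animals the limb differences of Ankrd2 and Csrp3 moved together, with r = 0.949 and rho = 0.943 over 56 animals after centring within sex (permutation p adjusted over 10 pairs = 5e-05, which rests on the smallest p the permutations could give). Without the 2 animals farthest from the median r was 0.93, without the animals of low Acta1 it was 0.912, and within the ranges of animal numbers it was 0.92, 0.938 and 0.979. Ankrd1 had lower values with Ankrd2 (r = 0.506, rho = 0.523) and with Csrp3 (r = 0.513, rho = 0.486), each with a permutation p adjusted to 0.00012. Leaving out the animals of low Acta1 lowered these to 0.289, which ended the call (adjusted permutation p = 0.067), and 0.342 (adjusted p = 0.036). Ankrd1 and Ctgf had r = 0.566 and rho = 0.554 (adjusted permutation p = 5e-05), with 0.342 in females and 0.781 in males, and r = 0.505 without the 2 farthest animals.

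The CCN genes Ctgf and Cyr61 had r = 0.359 and rho = 0.353 (adjusted permutation p = 0.0096), with 0.413 without the 2 farthest animals, but -0.0541 in animals 21 to 40. Ctgf had r = 0.493 with Csrp3 (adjusted permutation p = 0.00042) and 0.404 with Ankrd2 (0.0042). The value with Ankrd2 was 0.143 in females and 0.694 in males, and its call ended without the 2 farthest animals (r = 0.258, adjusted p = 0.088) and without the animals of low Acta1 (0.216, adjusted p = 0.21). Cyr61 had r = 0.262 with Ankrd1 (adjusted permutation p = 0.067), 0.146 with Csrp3 (0.32) and 0.118 with Ankrd2 (0.39). In all, 7 of 10 pairs passed by Pearson's r and 8 by Spearman's rho, and Cyr61 stood in each pair that failed by Pearson. These tests ask only whether a pair is related at all, and many genes moved with the members. Over 11463 genes the 95th percentile of r was 0.545 for Ankrd2, 0.506 for Csrp3, 0.426 for Ankrd1 and 0.335 for Ctgf. Ctgf with Ankrd2 and with Csrp3, and Ankrd1 with Ankrd2, lay below the percentile of Ankrd2 or Csrp3. They lay above that of Ctgf or Ankrd1. In control limbs alone the levels of Ankrd2 and Csrp3 were likewise tied, with r = 0.939.

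**Figure D4:**
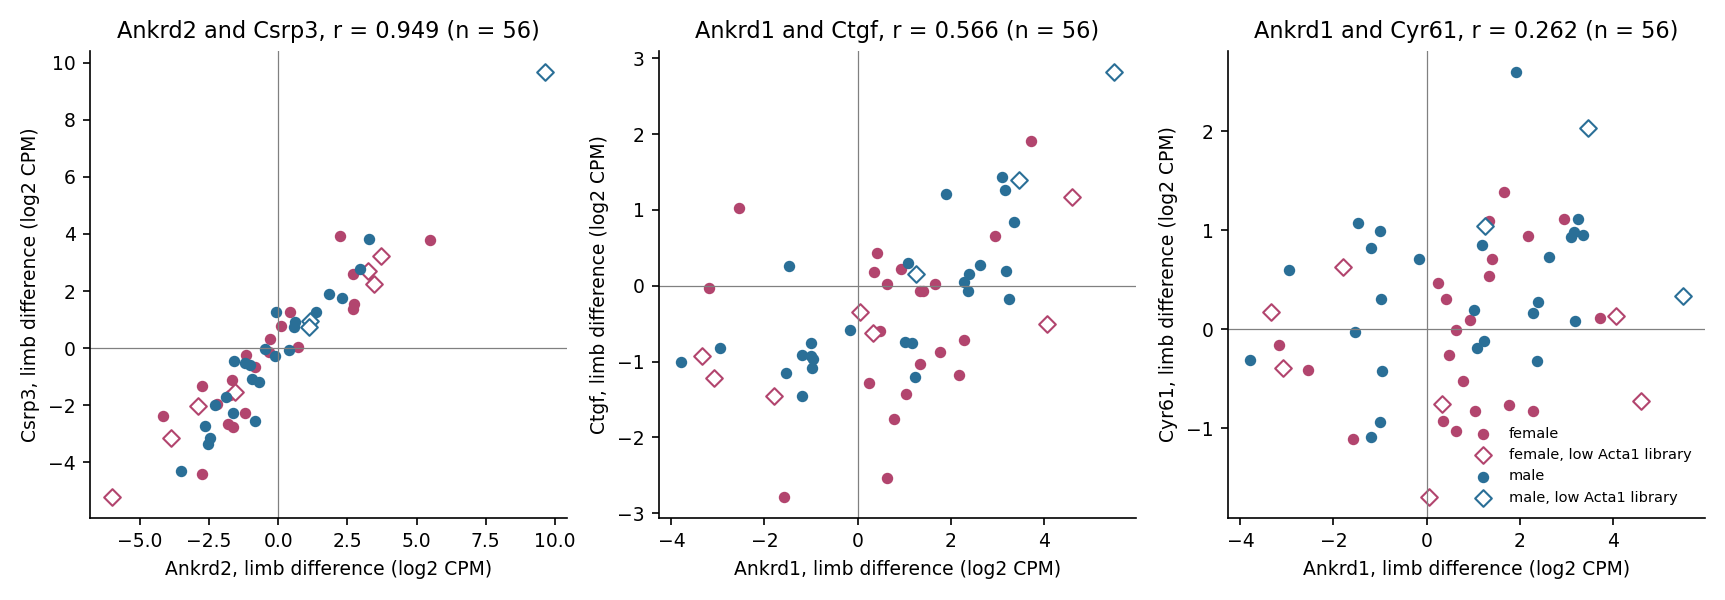
Limb differences in log2 CPM of 56 animals for 3 pairs of genes, with a gene on each axis. The points are not centred, while each r was computed after centring within sex. The points of Ankrd2 and Csrp3 lie along a line (r = 0.949), those of Ankrd1 and Ctgf form a broad band (r = 0.566) and those of Ankrd1 and Cyr61 scatter (r = 0.262).

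No relation between the level in the control limb and in the cast limb of the same animal passed. The correlation ran from -0.2 to 0.417 over the 5 genes in each sex, the highest being Cyr61 with 0.417 in females and 0.413 in males. By permutation 0 of 10 passed after adjustment, with males 15 and 16 paired as labelled. Ankrd1 in females had r = 0.395, and r = 0.568 without the 2 farthest animals (adjusted permutation p = 0.025), so this relation rests on which animals enter.

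The genes whose limb differences were most like each member's were named over 11463 genes. For Ankrd1 they were Kera (r = 0.77), a cornea and tendon proteoglycan, Thbs4 (0.758), a tendon matrix protein, and Tnmd (0.752), the tendon marker tenomodulin. For Ankrd2 and Csrp3 the closest after each other were Hspb7, a small heat shock protein of muscle (0.925 and 0.921), and Lmcd1, a LIM protein of muscle (0.92 and 0.913). For Ctgf they were the collagen gene Col11a1 (0.745), Ssc5d (0.715) and Prg4 (0.712), which encodes lubricin of joints and tendon. For Cyr61 they were the immediate early genes Egr1 (0.764), Btg2 (0.76) and Ier2 (0.749). The 95th percentile of r over all genes was 0.426 for Ankrd1, 0.545 for Ankrd2, 0.506 for Csrp3, 0.335 for Ctgf and 0.222 for Cyr61, and since the 3 were picked as the highest, no test is given. With the animals of low Acta1 left out, Kera, Thbs4 and Tnmd were at 0.624, 0.622 and 0.59 with Ankrd1 and ranked 14, 16 and 22, and Psmd11, a proteasome subunit gene, ranked 1 at 0.721. Col11a1 was at 0.664 with Ctgf and ranked 18. Csrp3, Hspb7 and Lmcd1 stayed the 3 most alike for Ankrd2, and Egr1, Btg2 and Ier2 for Cyr61.

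Marker lists also moved with the members. The limb difference of Ankrd1 followed the mean of 8 tendon markers, with r = 0.771 and rho = 0.742 (permutation p adjusted over 45 relations = 9e-05, which rests on the smallest p the permutations could give). It was 0.749 without the 2 farthest animals, 0.619 without the animals of low Acta1, and 0.635, 0.487 and 0.921 in the ranges of animal numbers. The tendon list itself had 0 of 8 genes called in either direction over both sexes, where 19.9% of all genes passed. Of the 8, 4 were positive, and the part of the list in the result of Ankrd1 was not tested. Ctgf followed the same list with r = 0.669 (rho = 0.674, adjusted permutation p = 9e-05), and 0.596 without the animals of low Acta1. With fibroblast markers Ctgf had r = 0.36 (rho = 0.452, adjusted permutation p = 0.018 for r). Without the animals of low Acta1 this was 0.518 (adjusted permutation p = 0.0013), and in the ranges of animal numbers 0.704, 0.371 and 0.194.

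Ankrd2 and Csrp3 followed the slow-fibre list of 11 genes, such as slow myosin and slow troponins, with r = 0.806 and r = 0.734 (rho = 0.725 and 0.641, adjusted permutation p = 9e-05 for each). Without the animals of low Acta1 these were 0.643 and 0.517. They also followed Acta1, with 0.634 and 0.624, but without the animals of low Acta1 only with 0.0663 and 0.0716. Those animals were picked by Acta1 itself, so leaving them out narrowed its range. The lower values therefore cannot show what the relation to muscle content rests on. Over both sexes, where 19.9% of all genes passed, 1 of 11 slow-fibre genes fell and 0 rose. Of the 11, 0 were positive, with a median of -0.55 against 0.01 over all genes tested. The 11 genes were measured in the same limbs and are not repeats. As their mean in each animal, the limb difference was -0.41 ± 0.41 (SE, log2 CPM) in females, higher in 11 of 28. In males it was -0.16 ± 0.46, higher in 12 of 28. The gene that fell was Atp2a2, the slow-fibre calcium pump, by 0.80 ± 0.25 in log2 units (edgeR adjusted p = 0.017). When the animals of low Acta1 were left out, 5 of the 11 fell, where 32.5% of all genes passed. Of 12 fast-fibre genes 0 passed (4 rose and 1 fell in that fit), and Myh2, the fast IIa myosin and the nearest to passing, was at -0.67 ± 0.30 (edgeR adjusted p = 0.10).

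Cyr61 followed the mean of 20 immediate early genes, which do not include Cyr61, with r = 0.779 and rho = 0.807 (adjusted permutation p = 9e-05). It was 0.775 without the animals of low Acta1 and 0.835, 0.789 and 0.748 in the ranges of animal numbers. Of 20 immediate early genes tested, 17 were positive in males, with a median log2 difference of 0.25, and 7 in females, with a median of -0.02, against 0.00 and 0.01 over all genes. Without the animals of low Acta1 the medians were 0.23 in males and 0.08 in females, so the female value turned its sign, and the median male minus female difference went from 0.26 to 0.08. The 20 genes were measured in the same limbs and are not repeats. As their mean in each animal, the limb difference was 0.215 ± 0.168 (SE, log2 CPM) in males, higher in 19 of 28. In females it was -0.043 ± 0.16, higher in 13 of 28. In each sex 0 of 20 passed, where 4.57% of all genes did in females and 2.21% in males. Over both sexes, where 19.9% did, the small Maf factor Maff fell by 0.40 in log2 units (edgeR adjusted p = 0.017). The part of this list in the result of Cyr61 was not tested. Of all 45 relations of members and lists, 23 passed by Pearson's r and 13 by Spearman's rho, and 8 by Pearson's r without the animals of low Acta1. Among those 8 were Ankrd2 and Csrp3 with endothelial markers, at 0.546 and 0.512 (adjusted permutation p = 0.0013 and 0.0017), which over all 56 animals had been at -0.0362 and -0.0375.

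**Figure D5:**
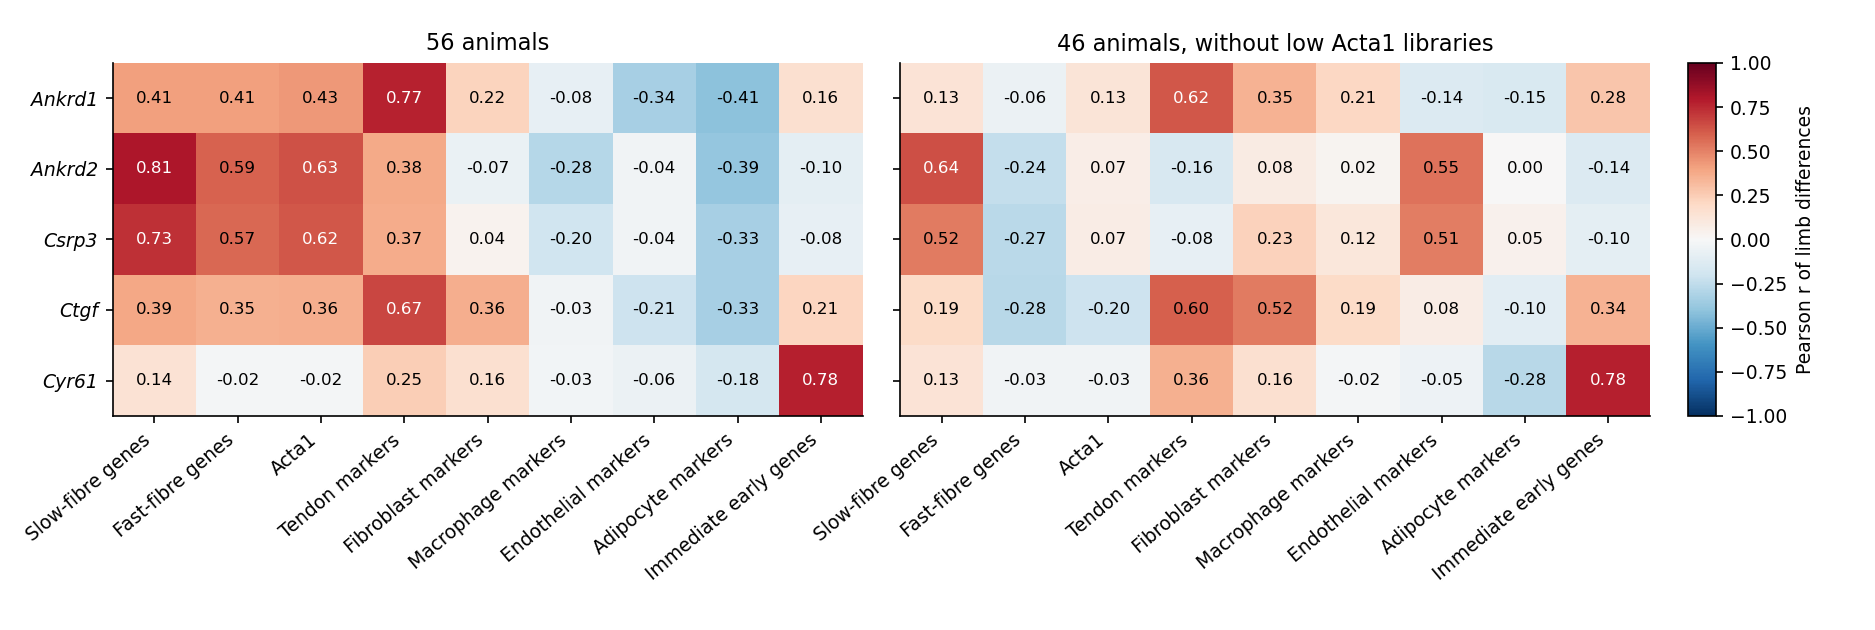
Pearson's r of the limb difference of each gene with the limb difference of Acta1 and of 8 gene lists, as a coloured grid, over 56 animals and over the 46 animals without a low Acta1 library. Ankrd1 and Ctgf are highest with tendon markers (0.771 and 0.669), Ankrd2 and Csrp3 with slow-fibre genes (0.806 and 0.734) and Cyr61 with immediate early genes (0.779).

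The pathways around the members were read over both sexes, where 19.9% of all genes passed. Of 8 muscle ankyrin repeat and titin-linked genes, 1 rose, Ankrd1 itself, and 0 fell, with a median log2 difference of -0.25. Of 22 LIM and Z-disc genes 0 rose and 1 fell, Pdlim5, which scaffolds protein kinases at the Z-disc (-0.44 ± 0.15, edgeR adjusted p = 0.036), with a median of -0.10. The median over all 11886 genes was 0.01. Without the 10 animals of low Acta1 the ankyrin repeat and titin list had 1 rise and 3 fall, and the LIM and Z-disc list 4 rise and 7 fall, in a fit where 32.5% of all genes passed.

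In the Hippo pathway, which holds YAP and TAZ in check, 1 of 21 tested genes rose and 4 fell, with a median of -0.03. The share called was near the 19.9% of all genes that passed. Tead4, a TEAD factor of muscle progenitors, rose by 0.40 ± 0.13 in log2 units (edgeR adjusted p = 0.022). The upstream regulator Nf2 (-0.14, adjusted p = 0.029) and the kinases Lats2 (-0.17, 0.038) and Lats1 (-0.17, 0.046) fell by small amounts. Tead1, another TEAD factor, was the fourth gene to fall (-0.33, adjusted p = 0.048), and was chosen for naming after its value was seen. In the fit without the animals of low Acta1, 2 of the 21 rose and 3 fell, with a median of -0.002. There 32.5% of all genes passed. Of 20 YAP and TAZ targets, counted without the members, 2 rose and 3 fell, with a median of 0.08. Lats2 was among the fallers of both lists. Without the animals of low Acta1, where 32.5% of all genes passed, 4 of 19 targets rose and 2 fell. Crim1, a membrane protein that binds BMPs, fell in females (-0.50, edgeR adjusted p = 0.016) and in males (-0.42, 0.044) and was the only gene of this list to pass in each sex. Thbs1, a matricellular protein that activates TGF-beta, fell by 0.57 ± 0.18 (edgeR adjusted p = 0.017), and Wtip rose by 0.34 ± 0.12 (0.038).

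Of 19 genes of serum response factor and its MRTF co-activators, 2 rose and 1 fell, and 5 rose and 2 fell in the fit without the animals of low Acta1, where 32.5% of all genes passed. The factor itself, Srf, fell in males by 0.34 in log2 units (edgeR adjusted p = 0.0095) and over both sexes by 0.28 ± 0.05 (0.00028), and in females it was at -0.22 (0.074). The smooth muscle genes Acta2 (0.34 ± 0.11, edgeR adjusted p = 0.021) and Tagln (0.32 ± 0.11, 0.039) rose over both sexes, and the pericyte and smooth muscle list, which also holds both, had 2 of 9 rise and 2 fall. Of 16 channels and adhesion sensors 0 rose and 1 fell, Lims1, an adaptor of integrin adhesions, by a log2 difference of -0.23 (edgeR adjusted p = 0.042). Of 10 TGF-beta response genes 1 rose, the matrix protein Tgfbi (0.55 ± 0.16, adjusted p = 0.011), and 1 fell, the inhibitor Smad7 (-0.26 ± 0.09, 0.032).

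Markers of other cell types moved beside these genes. Over both sexes, where 19.9% of all genes passed, macrophage markers rose in 9 of 9 tested genes, with a median log2 difference of 0.79. Fibroblast markers rose in 4 of 12 with a median of 0.33, and Schwann cell markers in 5 of 8 with a median of 0.43. Of 10 endothelial markers 1 rose and 5 fell, and of 10 muscle fibre markers, 5 satellite cell markers and 8 adipocyte markers 0 passed. Without the animals of low Acta1, where 32.5% of all genes passed, 9 of 9 macrophage markers rose. Muscle fibre markers then had 1 rise and 2 fall and satellite cell markers 1 rise. Endothelial markers had 2 rise and 3 fall in that fit, fibroblast markers 6 rise and Schwann cell markers 6 rise. Of 10 lymphocyte markers 0 were high enough to test. Whether these shifts have a part in the values of the 5 genes was not tested.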

How the data were processed

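RNA was extracted with a fibrous tissue kit and libraries were made with a stranded total RNA kit after ribosomal depletion, per the labels' protocols. The authors deposited raw counts of reads per gene, by symbol, with females and males in separate tables. Which aligner, counting tool, genome build and strand setting were used is not given in the sources used here, and reads carried no molecular identifiers. The 5 genes and all gene lists were chosen with earlier results of these data known. Genes were kept by edgeR's filter by group, scaled by TMM and fitted with edgeR 4.0.16 (R 4.3.3) by quasi-likelihood, with animal as a block and an immobilization effect for each sex. P-values were adjusted by Benjamini-Hochberg over 11886 genes at 0.05. The sexes were compared in 56 control and in 56 immobilized limbs without a block. DESeq2 1.42.0 and limma voom (3.58.1) were alternatives. CPM used TMM library sizes, and log2 CPM a prior count of 2. Permutation tests, two-sided, used 100000 resamples. Limb pairing comes from the animal number in the labels and was checked: the median correlation of deviations was 0.364 between limbs of an animal and 0.00125 between animals, above 0.1 in 45 of 56. On simulated counts of 11822 genes, 2-fold changes were recovered for 80.8% of changed genes in females, 75.8% in males and 90.9% over both sexes. At 1.5-fold the shares were 50%, 57% and 73%. The changed genes were drawn at random, while at least 96.9% of all genes had a smaller SE than Ankrd1, Ankrd2 or Csrp3 in each sex. Recovery was not measured for genes as variable as these members. Genes named outside the 5 were their close relatives, up to 4 called genes of each pathway list with the smallest p (or the nearest to passing), and the 3 most alike genes of each member. Per-length levels used exon lengths of GENCODE vM21.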

Additional observations from a re-analysis of the deposited data

How the results depend on the processing

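Ankrd1 over both sexes kept its call under every scaling, filter, tool and exclusion that was run, between 0.86 and 1.09, and in animals 1 to 20 alone (1.23), but not in animals 21 to 40 or 41 to 59 alone. It also kept it in 56 of 56 limma voom fits that each left out 1 animal (0.89 to 1.07). Leaving out each animal was planned, but limma voom in place of edgeR for these fits was chosen after seeing the data, as was leaving out the animals of low Acta1 together with males 15 and 16. Cyr61 in males was called in 49 of 56 such fits. It was lost without male 12, 18, 20, 32, 35, 37 or 55 (adjusted p 0.052 to 0.060). Of these fits 28 left out a female and kept every male, and all the losses fell among the fits without a male. Limma voom had called Cyr61 in males with every animal in as well. Ankrd1 in females was called only without female 26, Ctgf in females only without female 23 (-0.589) and Ctgf over both sexes only without male 52 (-0.336).

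Members called in males numbered 1 in place of 0 with DESeq2, limma voom, without males 15 and 16, without these and low Acta1, and with each sex fitted alone. Over both sexes they numbered 2 without low Acta1 and 0 in animals 21 to 40 and in 41 to 59, in place of 1. Genes called in females (543) numbered 145 with no filter on low counts, 1145 with DESeq2, 84 with the sex fitted alone, 2017 without low Acta1, 2021 with males 15 and 16 also out, and 0 in animals 21 to 40 and in 41 to 59. In males (263) they numbered 109 with no filter, 576 with DESeq2, 454 with limma voom, 589 with no replicate block, 582 with the sex fitted alone, 1071 without low Acta1, 1162 with males 15 and 16 also out, and 6, 0 and 1 in the 3 ranges of animal numbers. Over both sexes (2371) they numbered 3814 without low Acta1, 3862 with males 15 and 16 also out, and 1108, 1 and 2 in the ranges. For the sex difference in response, no replicate block gave 1 gene in place of 0, and the block changed no member's call. For sex in control limbs (214) they numbered 808 with no filter, 456 with a mean of at least 1 CPM, 331 with DESeq2, 118 with limma voom, 370 without low Acta1 and 46, 21 and 7 in the ranges. For sex in immobilized limbs (578) they numbered 1662 with no filter, 1038 with at least 1 CPM, 171 with limma voom, 212 without low Acta1 and 92, 7 and 35 in the ranges. The ranges and the fits without animals hold fewer samples, and the cause of the other shifts was not tested.

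Signs of fold changes turned only for members that were not called. In females Ankrd2 was 0.726 in animals 41 to 59, Csrp3 0.0912 in 21 to 40 and 0.336 in 41 to 59, and Cyr61 0.349 in 21 to 40, 0.00599 without low Acta1 and 0.00636 with males 15 and 16 also out. In males Ankrd2 was 0.176 and Csrp3 0.248 with no replicate block, and 0.337 and 0.148 in animals 21 to 40. Over both sexes Ankrd2 was 0.0788 in 41 to 59 and Csrp3 0.12 in 21 to 40. For the male minus female response, Ankrd1 was -0.0503 with limma voom, -0.288 with no replicate block, -0.301 without low Acta1 and -0.277 with males 15 and 16 also out. Ankrd2 was -1.29 in 41 to 59 and -0.0681 without low Acta1 and males 15 and 16, and Csrp3 was -0.878, -0.103 without low Acta1 and -0.201 with those males also out. For sex in control limbs Ankrd1 was 1.24 in 41 to 59, Ankrd2 -0.019 and Ctgf 0.342 in 21 to 40, and Cyr61 0.00638 without low Acta1. In immobilized limbs Ankrd1 was 0.0736 with limma voom and Ctgf -0.0651 without low Acta1 and -0.542 in 1 to 20. Leaving out 1 animal gave -0.22 to 0.17 for Ankrd1 and -0.16 to 0.30 for Csrp3 in the male minus female response, and -0.333 to 0.0562 for Ankrd2 in males.

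Between members 1 pair passed in animals 21 to 40 in place of 7, where Ankrd2 and Cyr61 had r = -0.318, Csrp3 and Cyr61 -0.363 and Ctgf and Cyr61 -0.0541. Between limbs 1 relation passed without the 2 farthest animals in place of 0. In males Ankrd2 between limbs had r = 0.0868 without those 2, 0.108 without low Acta1 and 0.236 in animals 1 to 20, Csrp3 0.062 without low Acta1 and 0.251 in 1 to 20, Ankrd1 0.202 and Cyr61 -0.52 in 1 to 20. In females Ankrd1 had -0.144 and Ctgf -0.115 in 41 to 59. With marker lists 14 relations passed without the 2 farthest animals, 8 without low Acta1, 9 in animals 1 to 20 and 1 in 21 to 40, in place of 23.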

Other observations

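Adipocyte markers, which include adiponectin and perilipin, pointed in opposite directions in the sexes. In females 8 of 8 were positive, with a median log2 difference of 0.77 between immobilized and control limbs, and in males 0 of 8 were, with a median of -0.93. The 8 genes were measured in the same limbs and are not repeats. As the mean of the 8 in each animal, the limb difference was 0.49 ± 0.52 (SE, log2 CPM) in females, higher in 17 of 28. In males it was -0.60 ± 0.54, higher in 9 of 28. No adipocyte gene passed the threshold in edgeR in females, in males or in the male minus female comparison, whose median was -1.63. Without the animals of low Acta1 the medians over the 7 genes then tested were 0.79 in females and -0.61 in males. The list is among those that stand far apart in the 10 libraries of low Acta1, and the part of those libraries in this pattern was not tested beyond these values.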
